A study of Homo sapiens with 4 samples.

Results

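AT/AC introns, which begin with AT and end with AC instead of GT and AG, were followed in splice junction counts from RNA bound to chromatin. Every junction that the aligner gave an AT/AC motif, on either strand, was taken if it had at least 1 uniquely mapped read over the 4 libraries. This gave 920 junctions of 385800 with a read, 198 of them annotated and 722 unannotated. The 2 groups of junctions were kept apart throughout. The RNA came from K562 cells, with 2 libraries labelled wild-type and 2 labelled SF3B1 K700E, a cancer-associated change in a splicing factor. The treatment text that all libraries share says that the modified allele was induced with doxycycline at 1 µg/ml and that cells were collected after 4 days. Whether the wild-type cells also had such an allele, or were given doxycycline, is not stated. Chromatin was prepared with 25 µM α-amanitin, a poison of RNA polymerase II, and its RNA was freed of polyadenylated RNA in 3 rounds and of ribosomal RNA. Replicates are not described as separate cultures, and the p-values below therefore rest on a spread between libraries that may be technical. Epithelial origin is given in the labels, although K562 is better known as an erythroleukemia line. All 10 erythroid marker genes had junction reads, 1222 to 2389 per library. Reads also fell on 5 of the 7 epithelial markers, 1234 to 2131 per library and nearly all on keratins KRT8, KRT18 and KRT19, while CDH1 and KRT5 had none.

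Human cells remove most introns with the major spliceosome and a small number with the minor one, in which U11 and U12 snRNPs replace U1 and U2. Minor introns carry a long, nearly invariant donor and a conserved branch site close to the acceptor, and may begin with AT or GT. The SF3b complex, including SF3B1, belongs to both the U2 snRNP and the U11/U12 di-snRNP. Cancer-associated SF3B1 changes such as K700E are best known for use of cryptic acceptors upstream of the usual one in major introns. Minor introns are often removed more slowly than major ones.

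The sequences below are shown because they separate introns with the minor donor and branch site from those that merely carry the AT/AC ends. They are read from GENCODE release 29 transcripts (GRCh38) whose exons run across an intron end, and so exist for only some introns. Capitals mark the 6-base minor donor in the donor lines, and in the end lines the best match to the branch motif TCCTTAAC within the last 30 bases. The GARS intron lies at chr7:30621501-30622316, plus strand, intron 11. That of DDB1 is at chr11:61300933-61302256, minus strand, intron 25. E2F4 has its intron 3 at chr16:67193171-67193471, plus strand, and SRSF10 its intron 2 at chr1:23975078-23978712, minus strand. All 4 lie in coding sequence. Only the first 12 bases are shown for GARS, and only those could be read for PRMT1 (chr19:49679930-49680139, plus strand, intron 2) and TM2D1 (chr1:61723787-61724956, minus strand, intron 1). The last 2 return below.
GARS donor: ATATCCtttctg
DDB1 donor: ATATCCttccca
DDB1 end: aagcacgtgtTCCTTAACtcacccatccac
E2F4 donor: ATATCCtcctgg
E2F4 end: ggcatcagccattcTCCTTAACcctcacac
SRSF10 donor: ATATCCtttctt
SRSF10 end: aaacttcccaagcCCCTTAACatttagcac
PRMT1 donor: ATATCCttttgt
TM2D1 donor: ATATCCtctgtg

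Some annotated AT/AC junctions look different. A junction in GLB1L2 (chr11:134375885-134376094) was assigned to the strand opposite to its gene, because the aligner sets the strand from the motif, and 14 of the 198 annotated junctions were of this kind. An intron of the sodium channel gene SCN2A (chr2:165380730-165381092, plus strand, 1 read) has AT/AC ends without the minor donor. Both donors are given in lower case.
GLB1L2 donor: atgtgagctggg
SCN2A donor: ataagtatatta

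Most of the donors that could be read on the gene's strand were minor donors. The donor could be read in 63 of these 180 introns, and 47 of the 63 (74.6%) began ATATCC, 36 of them ATATCCTT. None of the 6 readable opposite-strand donors did, and none of the 4 that release 29 lacks. Among 37751 readable GT/AG introns, 199 (0.527%) began GTATCC and 110 began GTATCCTT. The branch motif with at most 1 mismatch lay in the last bases, up to 40, of 28 of 49 readable AT/AC ends (57.1%), and of 1.83% of readable GT/AG ends. An exact TCCTTAAC was found in 11 of the 49 (22.4%), against 0.0981% of GT/AG ends. Where an ATATCC donor and such a branch match occurred together, in 15 introns, 7 to 21 bases separated the match from the end of the intron, with a median of 10. Motifs were sought on the intron's own strand only, and a match is a description of the letters, not of a site in use.

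The introns lay mainly in protein-coding sequence. Of the 180 on their gene's strand, 164 interrupted coding sequence, 6 lay in 3′ UTRs, 2 in 5′ UTRs and 8 in noncoding transcripts. They divided codons differently from GT/AG introns: 28.0% fell between codons (phase 0), 36.0% after the first base and 36.0% after the second base, against 46.3%, 31.2% and 22.5% of GT/AG introns in coding sequence. Only 16 were first introns. Their median length was 1454.5 nt, from 98 to 100276 nt. 161 genes held an intron assigned to that gene alone, and 13 genes held more than 1.

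The host genes include several families, which were grouped after the reads were seen. All 6 of the genes E2F1 to E2F6, transcription factors of the cell cycle, had reads over an AT/AC intron, 372 in all and between 11 (E2F5) and 111 (E2F4) each. The 3 diaphanous formins, which nucleate actin filaments, held 7 introns with 1028 reads. Carriers between nucleus and cytoplasm were represented by 3 exportins (478 reads in XPO4, XPO5 and XPO7) and 3 importins (340 reads in IPO5, IPO9 and IPO11). The 3 CREB coactivators CRTC1 to CRTC3 had 157 reads, 5 palmitoyltransferases of the ZDHHC family 194, and 4 sodium/proton exchangers of the SLC9A family 45. Voltage-gated sodium channel genes held 8 introns in 6 genes, but 139 of their 176 reads were over 1 intron of SCN9A. Calcium channel genes (CACNA1A, CACNA1B and CACNA1I) had 20 reads. No junction lay in a MAPK gene.

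Depth set what could be seen at each intron. Uniquely mapped junction reads numbered 3576184 and 3680968 for wild type, and 4297393 and 5313934 for K700E. Annotated AT/AC introns took 2641, 2935, 3509 and 3955 of them, in the same order, which is used for every set of 4 values below. Reads were spread unevenly: the 15 most read introns held 38.5% of all 13040 reads, 42 introns had at least 100 reads, and 57 had fewer than 10. The median intron had 33 reads, and 139 of the 198 (70.2%) were seen in all 4 libraries.

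The most read introns sat in genes of varied function. FAM192A, which encodes a proteasome activator-interacting protein, led with 165, 123, 174 and 363 reads. GARS, the glycyl-tRNA synthetase gene, had 129, 169, 190 and 236. DIAPH1 followed with 84, 58, 100 and 162 reads. In each of these 3 the second K700E library had the most reads, as it did overall. DCP2, the mRNA decapping enzyme, had 76, 80, 88 and 123 reads. DDB1, the DNA damage-binding subunit of a ubiquitin ligase, had 86, 77, 95 and 104, and VPS52, a subunit of a Golgi tether, 67, 46, 90 and 85. Scaled to depth, all 6 introns had overlapping groups. The other introns of the 15 were those of HNRNPL, ADAT2, TCEA1, DIAPH3, STX6, WDR1, XPO5, MTG1 and MORC3, with between 190 (MORC3) and 274 (HNRNPL) reads. The ADAT2 junction, with 250 reads, is of the opposite-strand kind: read along its gene it begins GT and ends AT.

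**Figure D1:**
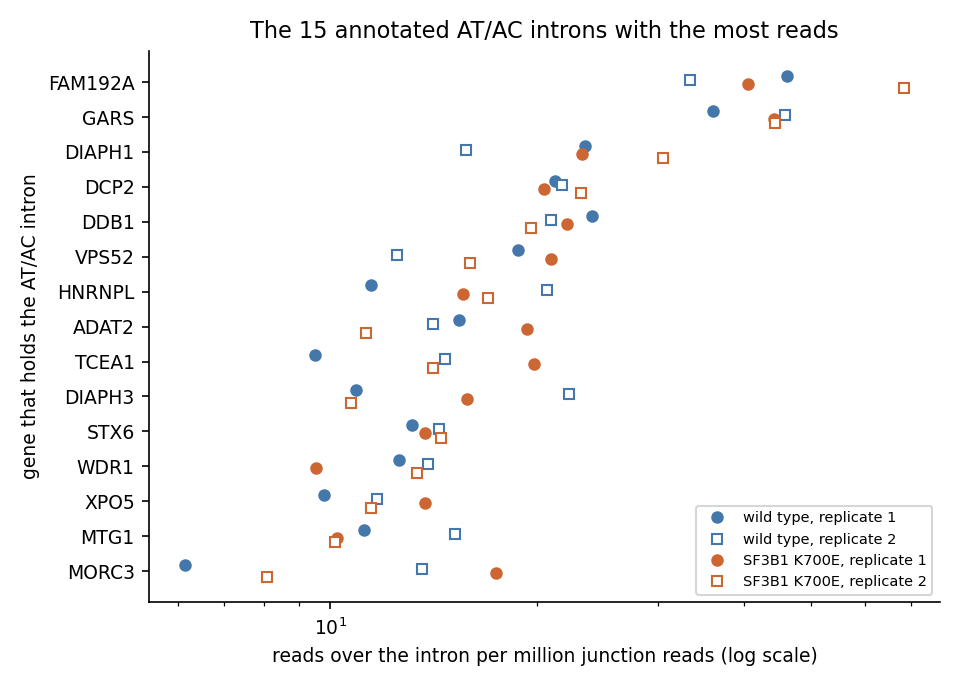
Reads over the 15 most read annotated AT/AC introns, as CPM of the library's uniquely mapped junction reads on a log axis, with 1 point per library (filled circles replicate 1, open squares replicate 2). Wild-type and K700E points interleave for most introns, and FAM192A is highest in the second K700E library with 363 reads.

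The share of splicing taken by AT/AC introns as a whole differed between genotypes by less than between replicates. In wild type 0.0773% and 0.0835% of reads over annotated junctions were theirs, and in K700E 0.0860% and 0.0781% (Wilson 95% intervals 0.0744 to 0.0803, 0.0805 to 0.0865, 0.0832 to 0.0888 and 0.0757 to 0.0805). These intervals, like the others below, cover counting error only, since the reads carry no molecular identifiers. The group means were 0.0804% ± 0.0043 (SD, n = 2) and 0.0820% ± 0.0056 (SD, n = 2), with p = 0.667 in a 2-sided exact permutation test. With 2 libraries against 2, that test cannot go below 0.333. The direction of this difference turned when either wild-type replicate 1 (-0.0015 percentage points) or K700E replicate 1 (-0.0023) was left out. Within the 161 host genes, wild-type libraries gave AT/AC introns 4.70% and 4.85% of the reads over annotated introns, and K700E libraries 4.70% and 4.50%. The groups only just failed to overlap (exact permutation p = 0.333, difference in means -0.178 percentage points).

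Use of each AT/AC intron relative to the other annotated introns of its gene was then tested over all 118064 junctions with at least 10 reads. No AT/AC intron of the 137 tested passed an adjusted p of 0.05 in edgeR's junction test (diffSpliceDGE, Benjamini-Hochberg adjustment). Of all junctions tested, 13 passed (0.011%), 12 of them higher in K700E. At an unadjusted p under 0.05, 1 AT/AC intron was called and was lower in K700E, where 1.57% of all junctions were called and 0.578% were lower. Without wild-type replicate 2 the unadjusted count was 6 higher and 2 lower of 133, with 0 past the adjusted threshold. limma voom also called 0 of 137, with 2 at an unadjusted p under 0.05. The members' median log2 change was -0.10, with 76 of 137 (55.5%) below 0, and over all junctions the median was 0.01, with 48.9% below 0. Leaving out wild-type replicate 2 turned the members' median to 0.0028, while it was -0.21 when K700E replicate 1 was dropped, -0.05 when K700E replicate 2 was, and -0.09 when wild-type replicate 1 was. Among the 40 tested introns with at least 100 reads, changes ran from -0.67 to 0.68, none past a factor of 2, and their median standard error was 0.39. For all 137 the median standard error was 0.54. Changes past a factor of 2, in either direction, were estimated for 13 of them, and none passed. Changes larger than a factor of 2 could therefore also go uncalled at this depth. The change was -0.01 (SE 0.30) at GARS, 0.17 (SE 0.34) at FAM192A, -0.21 (SE 0.35) at DIAPH1 and -0.21 (SE 0.29) at DDB1. It was 0.47 (SE 0.31) at TCEA1, an elongation factor gene, and -0.49 (SE 0.31) at WDR1, a cofactor of actin disassembly. Adjusted p was 1.00 for each of these introns.

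**Figure D2:**
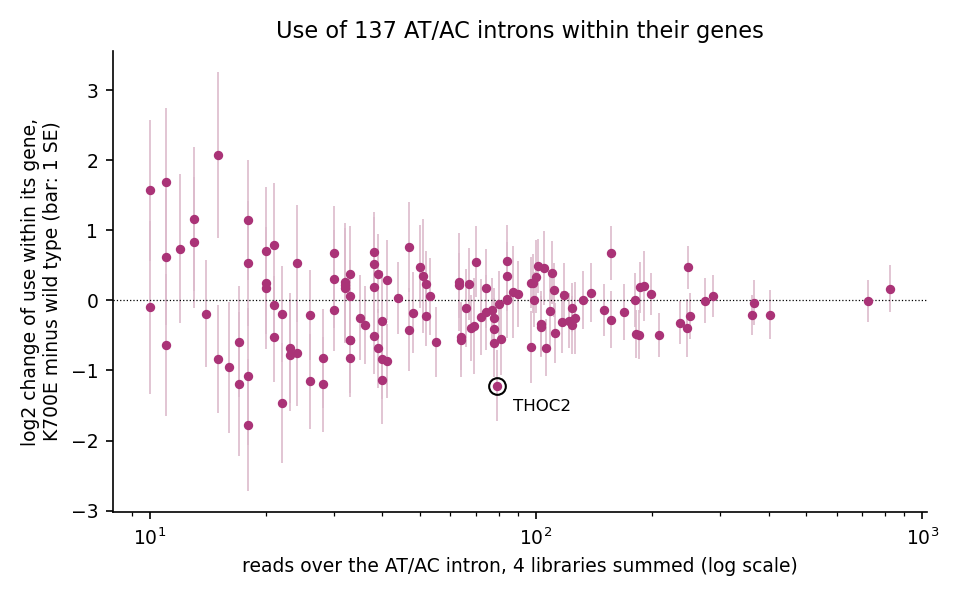
Log2 change of use within the gene (K700E minus wild type, edgeR) for the 137 annotated AT/AC introns tested, against the reads over the intron on a log axis; each point is an intron and bars are 1 standard error. The points narrow around 0 with depth, and the circled THOC2 intron at -1.22 is the only intron with an unadjusted p under 0.05.

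That single intron was in THOC2, which encodes the largest subunit of the THO complex for mRNA export. Intron 37 (chrX:123610964-123611439, minus strand, coding) had 27, 22, 13 and 17 reads, so both K700E libraries were lower although they were deeper. Its log2 change within the gene was -1.22 (SE 0.50), with an unadjusted p of 0.0172 and an adjusted p of 1.00 in edgeR. A second annotated acceptor lies 6 nt downstream of the first, on the same AT donor. The intron that ends there closes with AA instead of AC, so it is not one of the 198. The 6 bases between the 2 acceptors, in capitals throughout, end with that AA.
THOC2 between acceptors: TCATAA

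The downstream THOC2 acceptor had 19, 12, 22 and 32 reads. It took 41.3% and 35.3% of the reads of both acceptors in wild type and 62.9% and 65.3% in K700E (Wilson 95% intervals 28.3 to 55.7, 21.5 to 52.1, 46.3 to 76.8 and 51.3 to 77.1). The groups did not overlap, while the interval of each wild-type library overlapped those of both K700E libraries. In an edgeR fit over all junctions that share a donor, with noncanonical motifs included, the AT/AC acceptor changed by -0.77 (SE 0.46, unadjusted p 0.110, adjusted p 1.00). The AA acceptor changed by 0.73 (SE 0.46, unadjusted p 0.127, adjusted p 1.00). Of the 23393 junctions in that fit, 32 (0.137%) passed. This fit was added after the THOC2 reads had been seen.

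Other AT/AC introns with a choice of ends showed no call. Of the junctions that share a donor, 23366 were tested with known motifs, and 32 passed (0.137%), 31 of them higher in K700E. The 4 AT/AC junctions among them, 2 in VEZT and 2 in CRYZL1, had adjusted p values of 1.00, and 0 of 4 had an unadjusted p under 0.05 in edgeR or in limma voom, where edgeR gave 3.17% of all junctions. VEZT, a gene of a junctional membrane protein, has 2 AT/AC acceptors 4 nt apart, and the upstream one took 50%, 31.0%, 50% and 55.6% of their reads. AP4E1 has acceptors 2 nt apart (23 and 5 reads), NR2C2AP 6 nt apart (5 and 3 reads) and PRIM1 21 nt apart (112 and 1 reads). In CRYZL1 an acceptor with 105 reads and another 4407 nt downstream with 32 share a donor. TMEM87A and ZC3HC1 each have 2 AT donors on 1 acceptor, with 21 and 6 reads and with 39 and 2. No AT/AC junction met the minimum for the test of shared acceptors, in which 2 of 22976 junctions passed (0.0087%).

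No cryptic acceptor was seen upstream of an AT/AC intron. Across GT/AG introns, unannotated acceptors 10 to 30 nt upstream of the annotated one took 0.448 and 0.506 reads per 1000 in wild type and 1.27 and 1.06 in K700E, over 4106 sites. At the 198 annotated AT/AC introns there were 0 such reads beside 13040. In fact no unannotated junction on the same strand, or without a strand, shared a donor or an acceptor with an annotated AT/AC intron. Junctions with a motif on the opposite strand were left out of that search. Among them a GT/AG junction with 3 reads ended at the acceptor position of the VEZT intron with 47 reads. An AT donor joined to an AG would be a noncanonical junction. For these the aligner by default asks for a longer overhang and more reads than for GT/AG. It also drops, by default, unannotated noncanonical and AT/AC junctions with an end close to another junction's, as a shared donor is. The counts at AT/AC and GT/AG introns were therefore not gathered under equal conditions. How far these filters set the 0 was not tested, and no limit is drawn from it.

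Reads that avoid an AT/AC intron were counted as bypass: junctions with a known motif on the same strand that contain the intron, or that differ from it by at most 100 nt at both ends. In 16 introns with at least 10 reads and at least 5 bypass reads, the bypass share was higher in both K700E libraries than in both wild-type ones in 5, and lower in 0. Under the same rule 19.8% of 7112 annotated introns of all kinds were higher and 13.8% were lower. The introns named next were chosen after their values were seen.

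PRMT1, the main asymmetric arginine methyltransferase gene, had 17, 9, 7 and 7 reads over its AT/AC intron and 21, 22, 34 and 34 over bypass junctions. An annotated GT/AG junction of 3170 nt that contains the intron supplied 20, 19, 26 and 24 of these, and one of 561 nt, which begins 4 nt upstream of the AT donor, 1, 3, 8 and 9. The bypass share was 55.3% and 71.0% in wild type and 82.9% in both K700E libraries (Wilson 95% intervals 39.7 to 69.9, 53.4 to 83.9, and 68.7 to 91.5 for both). The groups did not overlap, but the intervals of both wild-type libraries overlapped those of the K700E libraries. In the test within the gene the intron changed by -1.14 (SE 0.63, edgeR unadjusted p 0.0769, adjusted p 1.00).

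TM2D1 and ZC3H8 showed GT/AG pairs that replace both ends of the AT/AC intron. In TM2D1 the intron had 7, 10, 2 and 7 reads. An annotated GT/AG intron with its donor 55 nt and its acceptor 14 nt downstream had 1, 5, 9 and 8 reads, and another on the same acceptor had 3, 3, 3 and 2. Together with a junction of 1 read they took 36.4% and 44.4% in wild type and 85.7% and 61.1% in K700E, and the 4 Wilson intervals overlapped, from 15.2 to 64.6, 24.6 to 66.3, 60.1 to 96.0 and 38.6 to 79.7. In ZC3H8, a zinc finger gene, an unannotated GT/AG intron that begins 57 nt upstream and ends 17 nt downstream had 0, 0, 3 and 4 reads beside 14, 9, 7 and 11 over the AT/AC intron 6. A count of 0 there allows a share of up to 21.4% and 33.3% in the wild-type libraries, and the intervals around the K700E shares of 30% and 26.7% (10.8 to 60.3 and 10.9 to 52.0) reach below these limits, so no difference could be told at this depth. RNF123, a ubiquitin ligase gene, had 0, 0, 5 and 2 reads over an unannotated bypass junction beside 2, 2, 0 and 6 over its AT/AC intron.

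Among the well-read introns, VPS52 had 2, 2, 3 and 9 bypass reads (2.90%, 4.17%, 3.23% and 9.57%), and DCP2 had 10 bypass reads in all beside 367. Over all annotated AT/AC introns, junctions that contain one took 4.66% and 5.20% in wild type and 5.09% and 5.31% in K700E (exact permutation p = 0.667). With multiply mapped reads added, the difference in means turned from 0.271 to -1.31 percentage points. An annotated GT/AG junction around a 5-read AT/AC intron of ZC3H8 supplied 167 of these 700 reads.

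**Figure D3:**
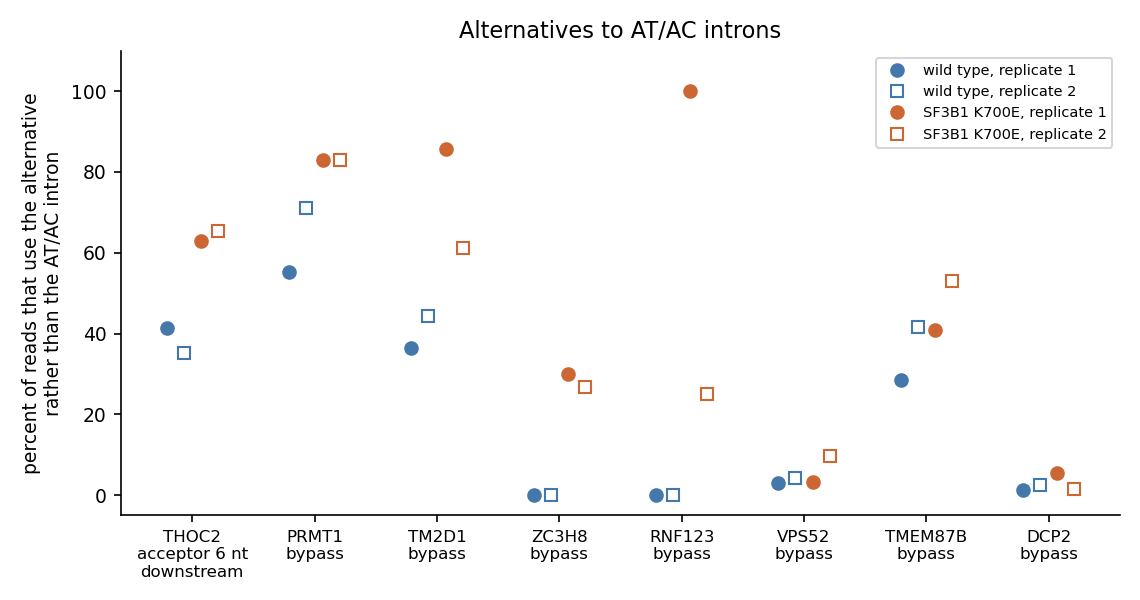
Share of reads that use an alternative instead of the AT/AC intron, in percent, for 8 introns, with 1 point per library. For THOC2 the alternative is the acceptor 6 nt downstream, and for the others it is every bypass junction. K700E points lie above wild-type points in THOC2, PRMT1, TM2D1, ZC3H8 and RNF123 and interleave in VPS52, TMEM87B and DCP2.

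AT/AC introns had fewer reads than their neighbours. The reads over each intron were set against the mean of the nearest annotated introns on both sides in the same transcript, as a log2 ratio with 0.5 added to both. To compare like with like, introns in the coding part of principal transcripts were used, a restriction chosen after seeing the data. The median ratio over the pooled libraries was -0.33 for 138 AT/AC introns and -0.02 for 110728 GT/AG introns, and 71.0% against 50.7% were below their neighbours. GT/AG introns with the minor donor GTATCCTT had a median of -0.47 over 90 introns, with 68.9% below. AT/AC introns whose donor could be read as ATATCC were at -0.76 (40 introns). For both of these sets a readable donor requires an annotated exon that covers the first 12 bases of the intron, which not all GT/AG introns have. Over all annotated introns with a readable donor, the median was -0.76 for 44 ATATCC introns, -0.52 for 105 GTATCCTT introns and -0.71 for 33242 GT/AG introns with another donor, so readable GT/AG introns without the minor donor were also low, and 72.5% of them were below their neighbours. AT/AC introns whose donor could not be read had a median of -0.33 over 113 introns. In the same full annotation, all 156084 GT/AG introns compared had a median of -0.23, and all 176 AT/AC introns -0.52. Ratios more than a factor of 2 below the neighbours were found in 18.58% of the 113 introns. They were found in 27.98% of these GT/AG introns and in 30.68% of the 176 AT/AC introns.

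Individual AT/AC introns ranged widely around the AT/AC median. GARS (724 reads, 99.1% of its neighbours' mean), FAM192A (103%) and DIAPH1 intron 24 (97.0%) were level with their neighbours. DIAPH1 intron 11, with 169 reads, had 31.8%, and in SRSF10, a gene of a splicing regulator, the AT/AC intron had 81 reads or 16.4%. DCP2 intron 2 (223%) and SPC24 intron 2 (215%) had more reads than their neighbours. SPC24 encodes a kinetochore subunit. The order of these percentages rests on pooled reads and depends on how the annotation sets each intron's neighbours.

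Between genotypes the ratio was compared over libraries, where the exact test could not reach significance. In the coding part of principal transcripts the library medians were -0.16 and -0.28 in wild type and -0.36 and -0.48 in K700E, which do not overlap (exact permutation p = 0.333, the smallest possible). The means were -0.22 ± 0.08 and -0.42 ± 0.08 (SD, n = 2), a difference of -0.20, which ran from -0.26 to -0.14 with 1 library left out. The 40 of these introns with a readable ATATCC donor had medians of -0.62 and -0.73 in wild type and -0.69 and -0.82 in K700E. Those groups overlap, with a difference of -0.08 (exact permutation p = 0.667). Of the 138 introns, 34 (24.6%) were lower in both K700E libraries than in both wild-type ones and 14 (10.1%) were higher, where 16.4% and 16.5% of all annotated introns were. GT/AG introns were at 0.00 in all 4 libraries. Most of their neighbours are GT/AG introns too, so a shift shared by GT/AG introns would cancel, and this value is no test of one. GT/AG introns with the minor donor were at -0.41, -0.23, -0.37 and -0.51, where the groups overlap. Over all 176 annotated AT/AC introns that could be compared, the medians were -0.50 and -0.42, then -0.47 and -0.81, which overlap (exact permutation p = 0.667). The difference was -0.18, and it was -0.01 without K700E replicate 2 and -0.35 without K700E replicate 1. Of the 176, 45 (25.6%) were lower in both K700E libraries than in both wild-type ones and 15 (8.52%) were higher.

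**Figure D4:**
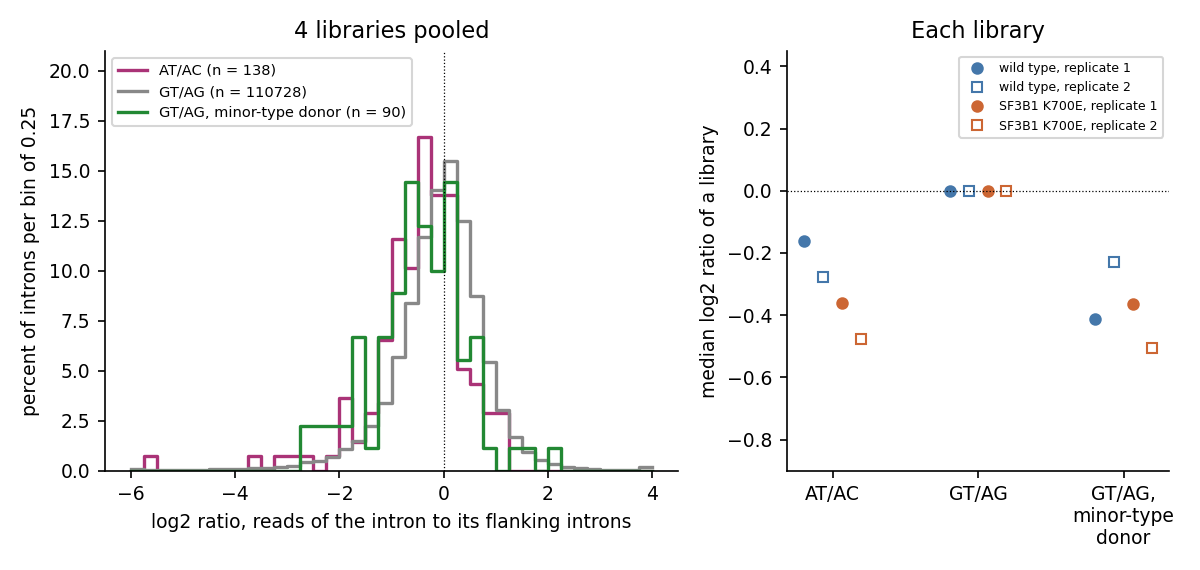
Left, distribution of the log2 ratio of an intron's reads to those of its flanking introns, 4 libraries pooled, in the coding part of principal transcripts, with the percent of introns per bin of 0.25; the outermost bins collect all values beyond them. Right, the median ratio in each library, where AT/AC introns run from -0.16 to -0.48, GT/AG introns are at 0.00 and GT/AG introns with the minor-type donor lie between -0.23 and -0.51.

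Junction reads summed per gene gave the level of the host genes. Of 149 host genes tested, SYCP2 was higher and FCHO1 and FCGR2C were lower in K700E in edgeR's quasi-likelihood test with Benjamini-Hochberg adjustment, 3 genes where 102 of 10833 genes passed (0.942%, of which 0.332% higher and 0.609% lower). Without adjustment, 13 host genes had p under 0.05, 6 higher and 7 lower (10.1% of all genes were called in either direction). FCHO1, an endocytic adaptor gene, had 95.3 and 43.9 CPM (counts scaled to the library's total over genes) in wild type and 7.82 and 4.16 in K700E (log2 change -3.55, SE 0.46, adjusted p 0.0054). SYCP2, a component of the meiotic synaptonemal complex, had 3.67 and 2.7, then 40.8 and 16.2 (log2 change 3.14, SE 0.52, adjusted p 0.024). FCGR2C, an Fc receptor gene with near-identical relatives, had 58.0 and 62.5, then 24.7 and 22 (log2 change -1.37, SE 0.27, adjusted p 0.044). The groups did not overlap in any of the 3, yet without K700E replicate 2 that fit called 0 of 11250 genes in all, and the 3 log2 changes were -3.13 for FCHO1, 3.68 for SYCP2 and -1.27 for FCGR2C (edgeR adjusted p 0.268, 0.129 and 0.380). At an unadjusted p under 0.05 it called 336 higher and 606 lower. Their AT/AC introns were little read, with 6 reads in SYCP2, 21 in FCHO1 and 2 in FCGR2C. Reads come from RNA on chromatin in bulk, so fewer cells with a transcript and less transcript per cell cannot be told apart.

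Genes of the minor spliceosome itself did not pass the test. All 15 on the list (RNPC3, SNRNP25, SNRNP35, SNRNP48, PDCD7, ZMAT5, ZCRB1, RBM41, ZRSR2, SCNM1, RBM48, ARMC7, CENATAC, TXNL4B and CRIPT) were tested and 0 passed in edgeR, with 0 at an unadjusted p under 0.05. The median log2 change was 0.06 and the range was -0.50 to 0.67, beside a median of 0.00 over all genes. RNPC3, the U11/U12 65K protein that binds U12 snRNA, had 380, 432, 697 and 760 reads. Scaled to depth these were 116 and 130 CPM in wild type and 176 and 158 in K700E. Its log2 change was 0.44 (SE 0.22, edgeR unadjusted p 0.077). ZRSR2, which recognises the acceptor of minor introns, had 277, 219, 256 and 370 reads (log2 change -0.09, SE 0.26). Of the 7 SF3b genes, 6 had enough reads, and 0 passed, also with 0 at an unadjusted p under 0.05. SF3B1 had 2934, 3379, 3351 and 3375 reads (log2 change -0.31, SE 0.22), which do not tell the K700E allele from the wild-type one.

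The 722 unannotated AT/AC junctions were of another kind than the annotated ones. They held 1064 reads in all, 593 of them (82.1%) had a single read, and 8 had at least 10. None shared a donor or an acceptor with an annotated junction, where 65.1% of 191227 unannotated GT/AG junctions did. By default the aligner drops unannotated AT/AC junctions with an end close to that of another junction, and is less strict for GT/AG. How far this filter set the 0 was not tested, so no limit is given for it. Unannotated GC/AG junctions were nearer to the 722, with 1.23% sharing an annotated end, 75.4% at a single read and 14.5% at most 60 nt. Of the 722, 583 (80.7%) were on the plus strand, compared with 50.3% of unannotated GT/AG junctions and 44.4% of annotated AT/AC ones. They were also short, with 21.3% at most 60 nt, against 1.69% of unannotated GT/AG junctions and 1 of the 198 annotated AT/AC ones.

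The 3 best-read unannotated AT/AC junctions were short and lay inside genes. A junction of 38 nt in METAP1, a methionine aminopeptidase gene (chr4:99004445-99004482, plus strand), had 2, 8, 19 and 10 reads. One of 57 nt in CDCA2, on chromosome 8, had 4, 9, 11 and 7, and one of 40 nt in DAPK1, a kinase gene (chr9:87589798-87589837, plus strand), had 4, 4, 13 and 7. Neither end of these 3 fell in an annotated exon. The next 2 were a junction of 237851 nt from the STXBP5-AS1 locus into STXBP5 (chr6:147099364-147337214, plus strand), with 2, 6, 3 and 9 reads, and one of 715 nt on the strand opposite to ENPP3 (chr6:131715282-131715996, minus strand), with 3, 1, 5 and 6. Of all junction reads, unannotated AT/AC junctions made up 0.0067% and 0.0053% in the wild-type libraries and 0.0065% and 0.0066% in K700E (exact permutation p = 1.00).

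**Figure D5:**
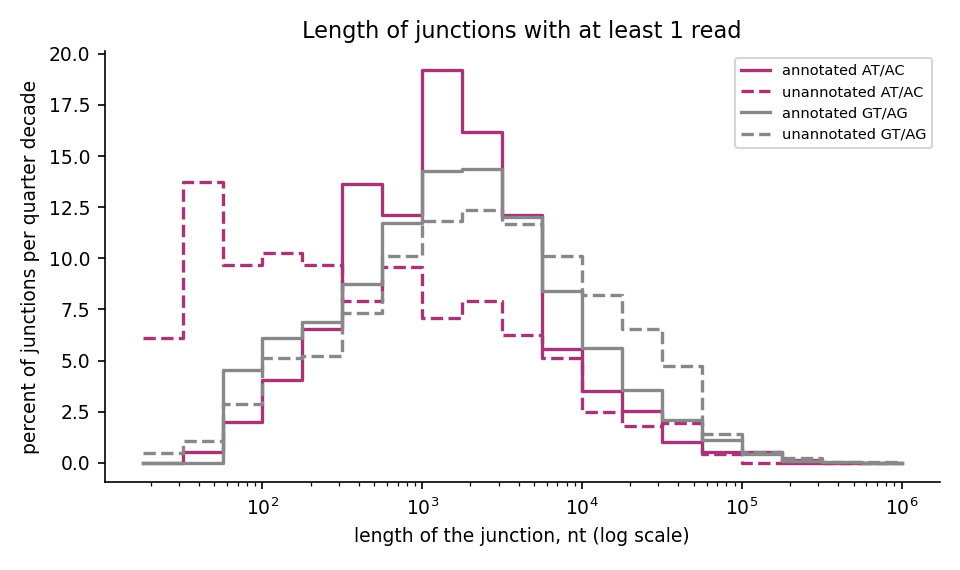
Length of junctions with at least 1 read, on a log axis, as the percent of each class per bin of 0.25 on the log10 scale; solid lines are annotated and dashed lines unannotated junctions, with AT/AC in purple and GT/AG in grey. Unannotated AT/AC junctions spread down to 21 nt, where the other 3 classes have few junctions.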

How the data were processed

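Alignment used STAR 2.7.10a on GRCh38 with junctions of GENCODE releases 27 and 22, per the file headers of the deposited run logs. The deposited junction files hold raw counts of uniquely and multiply mapped reads per junction, a motif, an annotation flag and the longest overhang, with no normalization. The 4 files were joined, and uniquely mapped counts were used. Genes and sequences came from GENCODE release 29; strand of a junction is that of its motif. No genome was used here, and some intron ends are not reported here.

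Junction use, within genes and over shared donors or acceptors, was tested with edgeR 4.0.16 in R 4.3.3 (glmQLFit and diffSpliceDGE, at least 10 reads per junction, TMM, group as the only term, Benjamini-Hochberg adjustment over all junctions). Its natural-log coefficients were divided by the natural log of 2; a change is relative to the read-weighted mean of the gene or cluster. Standard errors are the change divided by the root of F. Gene totals were tested with edgeR's quasi-likelihood test after filterByExpr, and with DESeq2 1.42.0 as an alternative; junctions also with limma 3.58.1. The fits were tested on simulated data. Library shares were compared with 2-sided exact permutation tests over 6 assignments, with Wilson intervals.

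Named introns were the 15 with most reads, any past 0.05, the 5 best-read unannotated junctions and the 2 gene lists; the others were chosen after their values were seen. Members, lists and tests were chosen with earlier results of these data known. Alternatives were RLE scaling, other minima, multiply mapped reads, pseudocount 1, a replicate block, other tools and each library left out.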

Additional observations from a re-analysis of the deposited data

How the results depend on the processing

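No AT/AC intron passed an adjusted p of 0.05 in any alternative fit run for use within genes, shared donors or shared acceptors. Host genes called numbered 3, and 0 to 4 with 1 library left out, the 0 being without K700E replicate 2. Of the values given for named introns, 153 kept their direction and call under the alternatives and 12 changed sign without a call; for named genes the counts were 220 and 16, and 4 calls were lost. Differences in share (K700E minus wild type, percentage points) changed sign as follows. The AT/AC share of annotated-junction reads ran from -0.00233 to 0.00556 with 1 library left out, and the unannotated share from -0.000221 to 0.00119. The share of an alternative donor on the same acceptor, which rests on 2 reads, was -0.00278, and was 0.0112 with multiply mapped reads, 0.0785 over introns with at least 10 reads, and -0.0198 to 0.0142 with 1 library left out. The share of junctions that contain an AT/AC intron was 0.271, -1.31 with multiply mapped reads, and -0.000247 to 0.543 with 1 library left out.

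Over all features, calls within genes fell from 13 to 5 with a minimum of 30 reads and to 6 with limma voom; calls at shared donors went from 32 to 13 without a minimum and to 15 with limma voom; and genes called went from 102 to 218 with DESeq2. With 1 library left out they ran from 0 to 6, 6 to 16 and 0 to 318. A replicate block gave 2, 19 and 144 calls, 2 of them in host genes; the replicate numbers do not pair the libraries by the labels. The paired differences correlated at -0.29 over 9172 genes, and a crossed pairing, chosen after seeing the data, gave 12, 36 and 452 calls, 8 of them in host genes, and 3 AT/AC introns at an unadjusted p under 0.05 within genes. Depth limits most single introns, since 57 of 198 had fewer than 10 reads.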

Other observations

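Further pairs and trios of related genes each held AT/AC introns. Syntaxins STX6 and STX10, which drive membrane fusion, had 421 reads, and the elongation factor genes TCEA1 to TCEA3 had 263, of which 248 were in TCEA1. ARPC5 and ARPC5L, subunits of the Arp2/3 actin nucleator, had 211 reads, and SPCS2 and SPCS3 of the signal peptidase had 191. SETD1A and SETD1B, histone H3 methyltransferases, had 102.

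AT/AC junctions whose readable donor was not ATATCC had few reads beside their neighbours, with a pooled median log2 ratio of -4.67 over 19 junctions. This set includes junctions of the opposite-strand kind, such as that of GLB1L2, which had 400% of its neighbour's reads. A readable donor went with a low ratio in GT/AG introns as well, where the median was -0.71 without the minor donor. Next to the E2F4 intron an unannotated junction with a motif on the opposite strand had 29 reads. It took 17.4% and 28% of the reads of both junctions in wild type and 14.3% and 24% in K700E, where the groups overlap.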
